A study of Mus musculus with 6 samples.

Results

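Transcripts of 9 myelin genes were measured in the mouse hippocampus after knockdown of L-DL, the long isoform of the RNA-binding protein hnRNP DL. The genes were Mbp, Mobp, Cnp, Cldn11, Mal, Mag, Mog, Ermn and Opalin. They are a set given by name, chosen with earlier results of these data known, and their symbols matched 9 of the 52550 Ensembl genes in the count table. All 9 passed the filter of at least 10 counts in at least 3 libraries, as did 17621 genes in all. Among the 40961 alternative splicing events listed by rMATS, 26 lay in these genes, in Mag (10), Mbp (8), Mog (4), Mobp (2) and Mal (2). No event was listed for Cnp, Cldn11, Ermn or Opalin.

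At 8 weeks of age, male C57BL/6 J mice of both groups were injected in the bilateral CA1 areas with adeno-associated virus, carrying control shRNA in one group and L-DL shRNA in the other. The labels call the 3 control samples wild type and describe the other 3 both as hnRNP DL KD and as hnRNP DL-/-. In the virus, H1 promoters drove the shRNAs and a CamkIIα promoter drove the green reporter, while the RNA came from whole hippocampal tissue with all of its cell types. The numbers of reads counted on genes ranged from 16052529 to 16995425 in the controls and from 16525467 to 17913064 in the L-DL KD libraries. Hnrnpdl, the targeted gene, had counts of 2862, 3120 and 2689 in the control libraries and 3939, 2680 and 2904 in those labelled L-DL KD, which are called the KD-labelled libraries from here on. Its log2 fold change was 0.03 (SE 0.12, adjusted p = 0.898, edgeR quasi-likelihood test), so the gene's total count did not separate the groups, and the long isoform was not counted apart. Neuron markers were present in all libraries, with a summed level of 3858 to 4068 CPM in the controls and 2410 to 2774 CPM in the KD-labelled libraries. Nefl, 1 of these 6 markers, went the other way, with a mean of 253 CPM in the controls and 463 CPM in the KD-labelled libraries. Microglia markers summed to 887 to 1111 CPM and 1926 to 2374 CPM, respectively. The 3 choroid plexus markers Ttr, Folr1 and Kl summed to 1634, 408 and 4456 CPM in the control libraries and to 4987, 107 and 26 CPM in the KD-labelled libraries. In bulk tissue, fewer cells of a type and less RNA per cell cannot be told apart.

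Myelin is the multilayered membrane that oligodendrocytes wrap around axons in the central nervous system. Mature oligodendrocytes make its proteins at high levels. MBP and MOBP are cytoplasmic proteins that hold the inner faces of the membrane together, CNP keeps cytoplasmic channels open, claudin 11 seals the layers and MAL travels with the lipid-rich membrane to the sheath. MAG sits at the face toward the axon and MOG on the outermost surface. Several of these transcripts are alternatively spliced, and the balance of their isoforms shifts as oligodendrocytes mature.

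In the control hippocampus the 9 genes spanned a wide range of levels. Levels are given as CPM, read counts scaled to the library total after edgeR's TMM correction, and were divided by the summed exon length of the gene for comparisons between genes. On this scale Mbp led with 471 CPM per kb (range 451 to 491), followed by Mobp at 182 (174 to 191) and Cldn11 at 167 CPM per kb (161 to 178). The ranges of Mobp and Cldn11 overlapped. Mal followed at 116 CPM per kb, Cnp at 98.4, Mag at 59.6, Mog at 33.1, Ermn at 29.1 and Opalin at 4.92 CPM per kb. No other neighbours in this order overlapped over the 3 control libraries. The transcripts of the 9 genes together made up 0.625, 0.693 and 0.655% of all counts in the control libraries, and 0.799, 0.689 and 0.560% in the KD-labelled libraries. Pmp2, a marker of peripheral myelin, was at 0 counts in all 6 libraries.

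Of the 9 genes, Mag rose and Mal fell in the KD-labelled libraries, and 7 did not pass the test. Here and below, a gene passed with an adjusted p under 0.05 in the edgeR quasi-likelihood test, adjusted by Benjamini and Hochberg's method over all 17621 genes. The background is high in this comparison. Among all genes tested, 15.6% were called higher and 15.0% lower, so 1 member in each direction is near the share of all genes. The median log2 fold change of the 9 genes was 0.19, against 0.01 for all genes. The groups did not overlap in CPM for 2 of the 9 genes, against 47.2% of all genes.

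**Figure D1:**
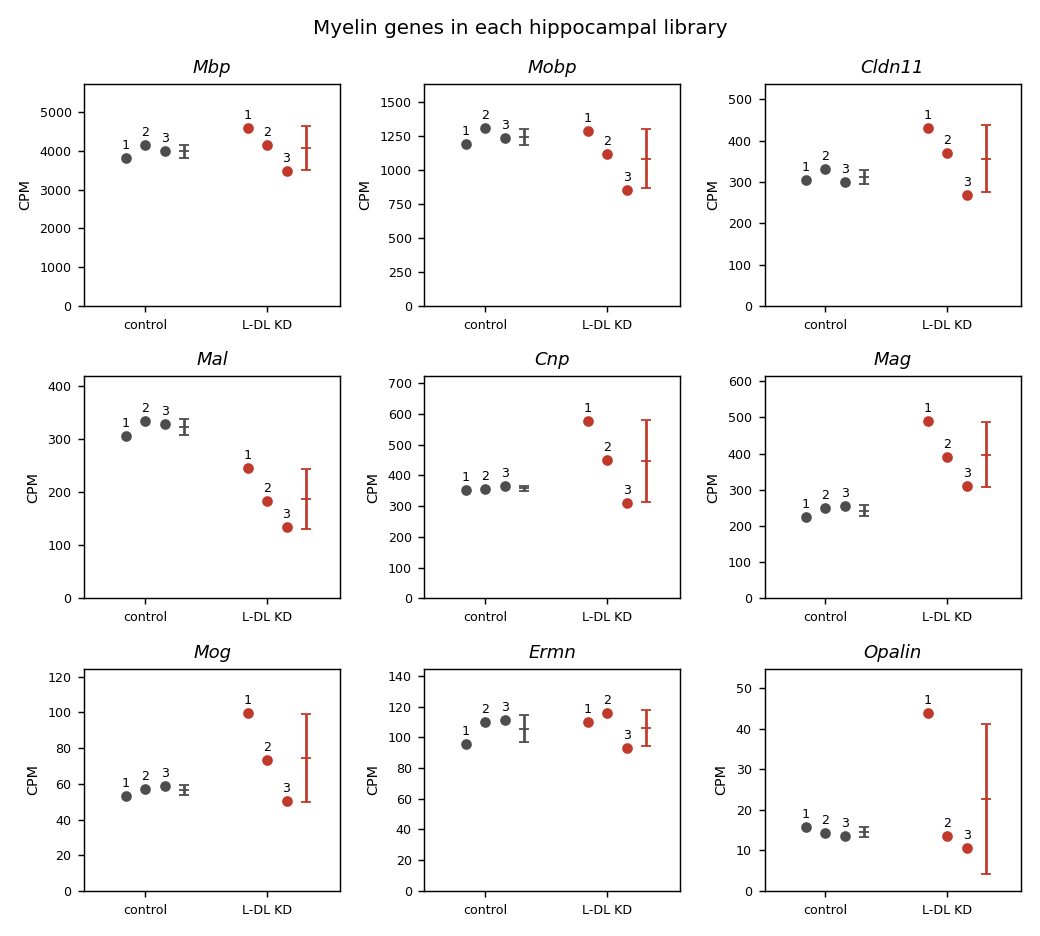
CPM (y axis, from 0) of each myelin gene in 3 control libraries (grey) and 3 KD-labelled libraries (red). Numbers are replicate numbers and bars are the mean ± SD. Mag lay higher and Mal lower in all 3 KD-labelled libraries, and the other 7 genes overlapped between the groups.

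The genes of the compact membrane came first in abundance. Mbp was at 3822, 4155 and 3999 CPM in the control libraries and at 4590, 4164 and 3472 CPM in the KD-labelled libraries. The 3 KD-labelled libraries lay on both sides of the controls. The group means were 3992 ± 167 and 4076 ± 564 CPM (SD, n = 3 each), with a log2 fold change of 0.03 (SE 0.11, adjusted p = 0.862). Mobp was at 1192, 1309 and 1235 CPM in the controls and at 1284, 1115 and 854 CPM in the KD-labelled libraries. L-DL KD replicate 1 lay within the control range and the other two lay under it, and the log2 fold change was -0.20 (SE 0.14, adjusted p = 0.313). Without L-DL KD replicate 1 the log2 fold change of Mobp was -0.34 with an adjusted p of 0.0362 from the same edgeR test, so that 1 library decided this call.

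Cnp, which encodes an enzyme of non-compact myelin, was at 352, 356 and 366 CPM in the controls and at 579, 449 and 311 CPM in the KD-labelled libraries. The control libraries lay close together, whereas L-DL KD replicates 1 and 2 lay above them and replicate 3 below. The log2 fold change was 0.32 (SE 0.19, adjusted p = 0.245). Cldn11, the tight junction claudin of myelin, was at 304, 333 and 301 CPM in the controls and at 431, 369 and 269 CPM in the KD-labelled libraries. Again L-DL KD replicates 1 and 2 lay above the controls and replicate 3 below, with a log2 fold change of 0.19 (SE 0.15, adjusted p = 0.387).

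Mal encodes a small proteolipid of lipid-rich membrane domains. Its level was 305, 334 and 327 CPM in the controls and 245, 183 and 133 CPM in the KD-labelled libraries. All 3 KD-labelled libraries lay below all controls. The mean fell from 322 ± 15.1 CPM (SD, n = 3) to 187 ± 55.7 CPM (SD, n = 3), 0.580 of the control level, with a log2 fold change of -0.79 (SE 0.19, adjusted p = 0.0156, edgeR). When 1 library was left out, the log2 fold change of Mal ranged from -1.03 to -0.59. The adjusted p was then 0.0534 without control replicate 2, 0.0540 without control replicate 3 and 0.0533 without L-DL KD replicate 2, which ended the call in each case.

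Mag encodes the myelin-associated glycoprotein, an adhesion molecule that binds the axon. It was at 225, 249 and 254 CPM in the controls and at 491, 391 and 310.5 CPM in the KD-labelled libraries. Every KD-labelled library lay above every control. The mean rose from 243 ± 15.4 CPM (SD, n = 3) to 398 ± 90.7 CPM (SD, n = 3), a 1.64-fold difference, with a log2 fold change of 0.71 (SE 0.15, adjusted p = 0.00972, edgeR). Mag kept its call under every alternative run here, the leaving out of each library included.

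Mog, the outermost surface protein of the sheath, was at 53.3, 57.2 and 58.7 CPM in the controls and at 99.7, 73.4 and 50.6 CPM in the KD-labelled libraries. L-DL KD replicates 1 and 2 lay above the controls and replicate 3 below them. The log2 fold change was 0.40 (SE 0.21, adjusted p = 0.182). Ermn, which encodes the actin-binding protein ermin of late oligodendrocytes, was at 95.7, 110.0 and 112 CPM in the controls and at 109.8, 116 and 93.4 CPM in the KD-labelled libraries. The groups overlapped, with a log2 fold change of 0.01 (SE 0.10, adjusted p = 0.960). Opalin, a transmembrane protein of oligodendrocytes, was at 15.8, 14.3 and 13.4 CPM in the controls and at 43.9, 13.6 and 10.5 CPM in the KD-labelled libraries. L-DL KD replicate 1 alone lay above the controls. The log2 fold change of Opalin was 0.65 (SE 0.48, adjusted p = 0.347) with all libraries and -0.26 (adjusted p = 0.222, edgeR) without L-DL KD replicate 1.

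**Figure D2:**
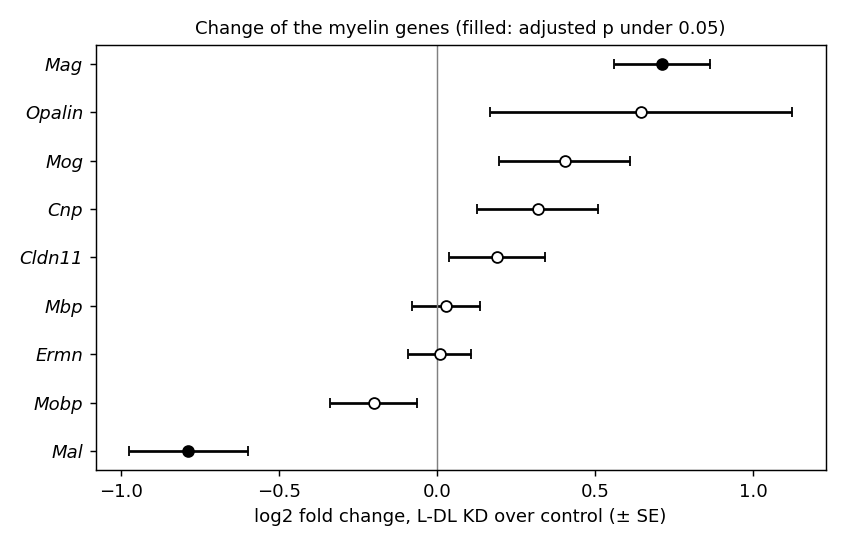
Log2 fold change (x axis, L-DL KD over control, ± SE) of the 9 myelin genes, ordered by size. Filled points passed an adjusted p under 0.05. Mag at 0.71 and Mal at -0.79 stand at the ends of the order, and the values of the other 7 genes lie between -0.20 and 0.65.

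The SD among the KD-labelled libraries was larger than that among the controls for 9 of 9 genes. L-DL KD replicate 1 was the highest of its group in 8 of the 9 genes, with Ermn as the exception. L-DL KD replicate 3 was the lowest of its group in 9 of 9 genes. The share of all genes with these traits was not computed, so they are no result about the members alone. The summed level of the 9 genes ranged from 6366 to 6917 CPM in the controls and from 5505 to 7873 CPM in the KD-labelled libraries. The choroid plexus markers given above were also highest in L-DL KD replicate 1 and lowest in L-DL KD replicate 3, while among the controls they were highest in replicate 3 and the summed myelin genes in replicate 2. Their part in the spread of the myelin genes was not tested. Without L-DL KD replicate 3, Mog, Cnp and Cldn11 passed the test as well, with log2 fold changes of 0.62, 0.53 and 0.36, and 5 members were called instead of 2, whereas the share of all genes called in either direction went from 30.5% to 25.2%. Without L-DL KD replicate 1 the log2 fold changes of the same genes were 0.14, 0.09 and 0.03, and none of them passed.

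Because the levels of the 9 genes moved together among the KD-labelled libraries, each gene was also expressed per 100 reads of Mbp in the same library. This measure was chosen after the data were seen. Mag was at 5.90, 6.0 and 6.35 reads per 100 Mbp reads in the controls and at 10.7, 9.39 and 8.94 in the KD-labelled libraries. Mal was at 7.99, 8.04 and 8.18 reads per 100 Mbp reads in the controls and at 5.33, 4.38 and 3.84 in the KD-labelled libraries. Mobp, which overlapped in CPM, did not overlap as a ratio to Mbp, with 31.2, 31.5 and 30.9 in the controls and 28, 26.8 and 24.6 in the KD-labelled libraries. The other 5 genes overlapped between the groups. Thus 3 of 8 ratios did not overlap, against 35.7% of all genes expressed in this way. The two-sided exact permutation test gave p = 0.1 for each of the 3 genes (n = 3 against 3), the smallest p that this design allows.

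Among 11001 genes outside the set with a mean of at least 10 CPM, the 4 whose profile over the 6 libraries was most like the mean profile of the members were Dbndd2, Ado, Fa2h and Tspan2. Their root mean square differences from it were 0.144, 0.165, 0.172 and 0.192 SD units. Of the members, Mbp was closest to the mean profile (0.128 SD units) and Mal farthest from it (1.03 SD units).

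Splicing of the members was then compared. The junction counts are given per group without replicate numbers, so the values of each group are listed in the deposited order. By its gene totals, each column was most like the library of its group with the same number as its place in that order. PSI, the share of transcripts that include a segment, was computed in each library from the junction counts of both forms, each divided by its effective length, and ΔPSI is the mean PSI of the KD-labelled group less that of the controls. Of the 26 events, 18 had a mean of at least 20 junction counts and of at least 1 count of each form, and entered a test on the junction counts of all 18829 such events. None of the 18 passed an adjusted p under 0.05 in edgeR, where 0.255% of all events passed, and none did so in limma, which called 0 of the 18829 events, so these counts are no result about the members. The unadjusted p was under 0.05 for 5 of the 18 events in edgeR, against 13.3% of all events, and for 2 in limma. PSI did not overlap between the groups for 4 of the 18 events, against 18.4% of all events.

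An alternative chosen after the data were seen was restricted to events with a mean of at least 200 junction counts and a mean PSI between 0.05 and 0.95, so that events with a very rare form did not enter the shared estimate of the spread. Of these, 16.4% passed an adjusted p under 0.05 in edgeR. They included 6 events of the members, of which 3 passed in edgeR and also in limma, where 11.3% of the events passed. The 3 were the 45 nt exon of Mag and a pair of overlapping events around the 123 nt exon of Mbp, which share reads. All 3 passed when any library was left out.

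The 45 nt exon of Mag lies at chr7:30900352-30900396 (GRCm38, minus strand) and is exon 12 of the 13 exons of Mag-203 in the GENCODE annotation. It holds 30 coding nt, a stop codon and 12 nt after it. Transcripts that include it encode the short form of the protein (S-MAG), and transcripts that skip it encode the long form (L-MAG), whose different cytoplasmic tail continues for 165 coding nt in the last exon. L-MAG is known as the more abundant form in the young brain and S-MAG as a form of mature myelin. The junctions that tell the forms apart are shown from the GENCODE transcripts, 5′ to 3′. Lower case marks the end of the shared upstream exon, and capitals mark the 45 nt exon up to and with its stop codon (included) or the start of the last exon (skipped).
Mag exon included: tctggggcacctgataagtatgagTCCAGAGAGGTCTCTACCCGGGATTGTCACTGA
Mag exon skipped: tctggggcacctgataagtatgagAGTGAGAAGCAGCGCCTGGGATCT

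The PSI of this exon was 0.739, 0.733 and 0.681 in the controls and 0.481, 0.542 and 0.617 in the KD-labelled libraries. All 3 KD-labelled libraries lay below the controls. The mean was 0.718 ± 0.0318 (SD, n = 3) and 0.547 ± 0.0681 (SD, n = 3), a ΔPSI of -0.171. The edgeR test over all events gave an unadjusted p of 0.00184 and an adjusted p of 0.130, and the test restricted to well-covered events gave an adjusted p of 0.00321. When 1 library was left out, ΔPSI ranged from -0.206 to -0.138.

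Counts of both forms contributed to this difference unequally. Junction counts of the included form were 349, 519 and 407 in the controls and 593, 563 and 461 in the KD-labelled libraries, a 1.27-fold difference of the means. Counts of the skipped form were 95, 146 and 147 in the controls and 494, 367 and 221 in the KD-labelled libraries, a 2.79-fold difference of the means. The skipped form, which encodes L-MAG, was therefore higher in each KD-labelled library than in any control, while the included form overlapped between the groups.

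**Figure D3:**
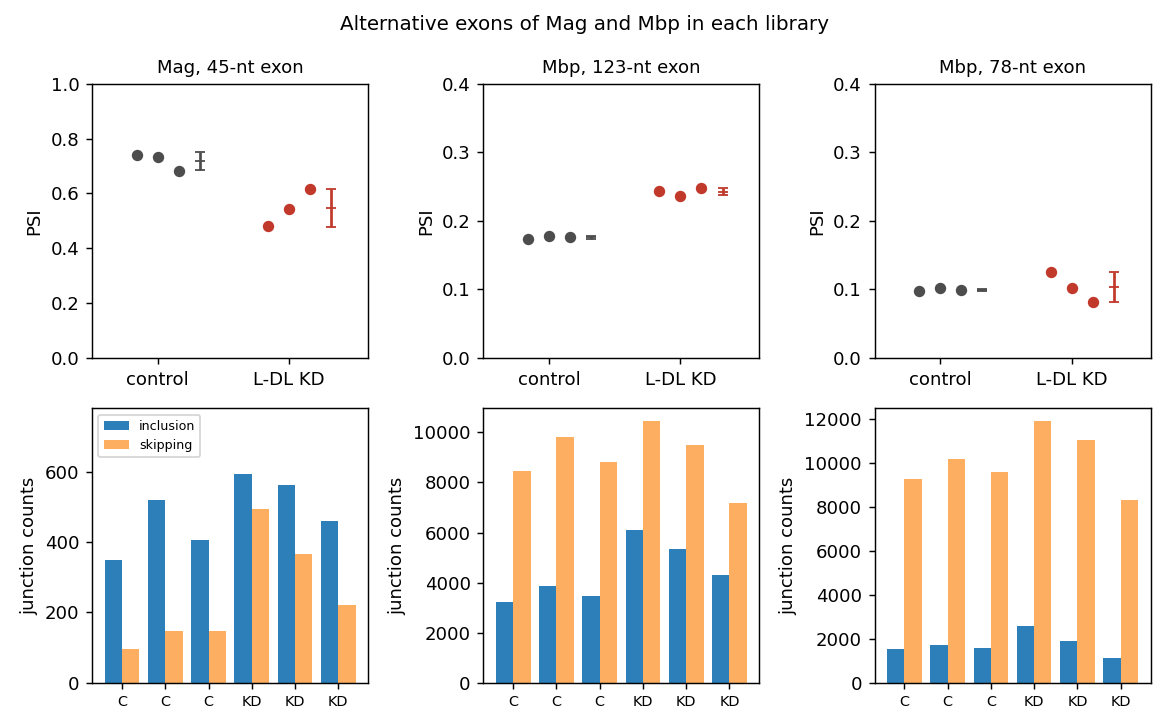
PSI (upper row, points are libraries, bars are the mean ± SD) and junction counts of both forms (lower row) for 3 exons of Mag and Mbp in 3 control libraries (C) and 3 KD-labelled libraries (KD), in the order of the table. PSI of the 45 nt exon of Mag lay lower and PSI of the 123 nt exon of Mbp lay higher in all 3 KD-labelled libraries, and PSI of the 78 nt exon of Mbp overlapped. The PSI axes differ in range.

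Of the other 6 tested events of Mag, none differed between the groups without overlap. The 5′ noncoding part of the gene held 3 of them, which share reads. A 57 nt form of noncoding exon 2 (chr7:30914265-30914321), whose 5′ splice site lies 4 nt beyond that of the 53 nt form, had a mean PSI of 0.0175 in the controls and 0.120 in the KD-labelled libraries. Only 1, 1 and 0 counts in the controls and 1, 7 and 18 counts in the KD-labelled libraries supported it (adjusted p = 0.473, edgeR), and the groups overlapped. As a skipped exon, the same 57 nt form had a mean PSI of 0.000833 and 0.0147, from nearly the same counts (an unadjusted p of 0.0416 and an adjusted p of 0.362 in edgeR). The 53 nt form had a mean PSI of 0.106 and 0.0961. An intron of 121 nt (chr7:30911770-30911890) was retained at a mean PSI of 0.0165 and 0.0273, and the 288 nt exon was included at a mean PSI of 0.999 and 0.998. The remaining event listed the 288 nt exon and the 97 nt exon beside it as mutually exclusive, although Mag-203 holds both. The mean share of junction reads assigned to the 288 nt exon was 0.609 and 0.636, which is no share of isoforms.

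Mbp had 7 tested events, all on chromosome 18 (plus strand). Exons are numbered as in Mbp-209, which has 7 exons. Its alternative exons set the sizes of the classic MBP isoforms, and the isoforms with exon 2 are known from immature oligodendrocytes. The 123 nt exon 6 (chr18:82578936-82579058), between the 33 nt exon 5 and the last exon, had a PSI of 0.174, 0.178 and 0.177 in the controls and 0.244, 0.237 and 0.247 in the KD-labelled libraries. The 2 groups lay apart, and within each group the libraries lay close together. The mean was 0.176 ± 0.00216 (SD, n = 3) and 0.243 ± 0.00524 (SD, n = 3), a ΔPSI of 0.0663. The edgeR test over all events gave an unadjusted p of 0.010 and an adjusted p of 0.235, and the test restricted to well-covered events gave an adjusted p of 2.80e-05. Leaving out 1 library gave a ΔPSI between 0.0640 and 0.0691.

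Inclusion counts of exon 6 were 3246, 3875 and 3448 in the controls and 6120, 5356 and 4290 in the KD-labelled libraries, a 1.49-fold difference of the means. Skipping counts were 8467, 9815 and 8826 in the controls and 10431, 9484 and 7183 in the KD-labelled libraries, a 1.0-fold difference. Both sets of counts are without scaling for depth, which was higher in the KD-labelled libraries. The CPM of Mbp overlapped between the groups and the PSI of exon 6 did not.

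rMATS also listed the 123 nt exon and the 33 nt exon 5 (chr18:82575601-82575633) as a mutually exclusive pair, although Mbp-209 and Mbp-212 hold both. Reads of transcripts with both exons enter this pair, so its value is a share of junction reads and not of isoforms. The share assigned to the 33 nt exon was 0.893, 0.890 and 0.891 in the controls and 0.845, 0.847 and 0.843 in the KD-labelled libraries. The groups did not overlap (unadjusted p = 0.00944, adjusted p = 0.231, edgeR). In transcripts with exon 6, inclusion of the 33 nt exon 5 was 0.993, 0.996 and 0.994 in the controls and 0.988, 0.984 and 0.987 in the KD-labelled libraries (unadjusted p = 0.00188, adjusted p = 0.130, edgeR). Its rare skipped form had 12 to 17 counts in the controls and 34 to 54 counts in the KD-labelled libraries. In transcripts without exon 6, inclusion of exon 5 was 0.997 in both groups. Inclusion of exon 6 between exon 4 and the last exon was 0.979 in the controls and 0.985 in the KD-labelled libraries, which overlapped. This value too used reads of transcripts that hold exon 5.

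Exon 2 of Mbp (78 nt, chr18:82561778-82561855) had a PSI of 0.0984, 0.101 and 0.0989 in the controls and 0.125, 0.102 and 0.0820 in the KD-labelled libraries. The control libraries agreed closely, and the KD-labelled libraries lay on both sides of them. The mean was 0.0996 ± 0.00165 (SD, n = 3) and 0.103 ± 0.0216 (SD, n = 3). The adjusted p was 0.971 in edgeR. A 431 nt exon that is used by Mbp-201, with an upstream start, was listed as a pair with the 102 nt exon 3, although Mbp-201 holds both. The mean share of junction reads assigned to the 431 nt exon, which is no share of isoforms, was 0.00895 and 0.0116, and the groups overlapped.

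Mobp and Mog had 2 tested events each, and the groups overlapped in all of them. The 79 nt noncoding exon 2 of Mobp (chr9:120154687-120154765) had a mean PSI of 0.980 in the controls and 0.977 in the KD-labelled libraries, and the 210 nt coding exon 3 had 0.998 and 0.997. The 117 nt exon 6 of Mog-201 (chr17:37012336-37012452) had a mean PSI of 0.983 and 0.987. The 114 nt and the 21 nt exon of Mog were listed as a mutually exclusive pair, although Mog-201 holds both. The mean share of junction reads assigned to the 114 nt exon, which is no share of isoforms, was 0.794 and 0.760 (adjusted p = 0.843, edgeR). The 8 events that were not tested had a mean of under 1 count of the rarer form, and both events of Mal were among them.

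The members were next set beside other genes of the oligodendrocyte lineage, grouped by stage and role in lists that were likewise chosen with earlier results known. Precursor markers were called higher in 7 of 7, against 15.6% of all genes, with a median log2 fold change of 0.60. Pdgfra, the growth factor receptor of precursors, rose from 59.8 ± 0.989 to 82.4 ± 2.14 CPM (SD, n = 3 each), Vcan from 40.1 ± 0.727 to 80.7 ± 9.01 CPM and Cspg4, which encodes NG2, from 32.9 ± 1.76 to 49.9 ± 2.53 CPM. Markers of committed and newly formed oligodendrocytes were called higher in 5 of 5, with a median log2 fold change of 0.93. Bcas1 rose from 166 ± 7.84 to 264 ± 17.1 CPM, Gpr17, a receptor of committed precursors, from 81.4 ± 3.44 to 155 ± 44.3 CPM and Itpr2 from 51.9 ± 1.56 to 69.2 ± 9.58 CPM. With 1 library left out, 5 to 7 of the precursor markers and 4 or 5 of the newly formed oligodendrocyte markers were called higher.

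**Figure D4:**
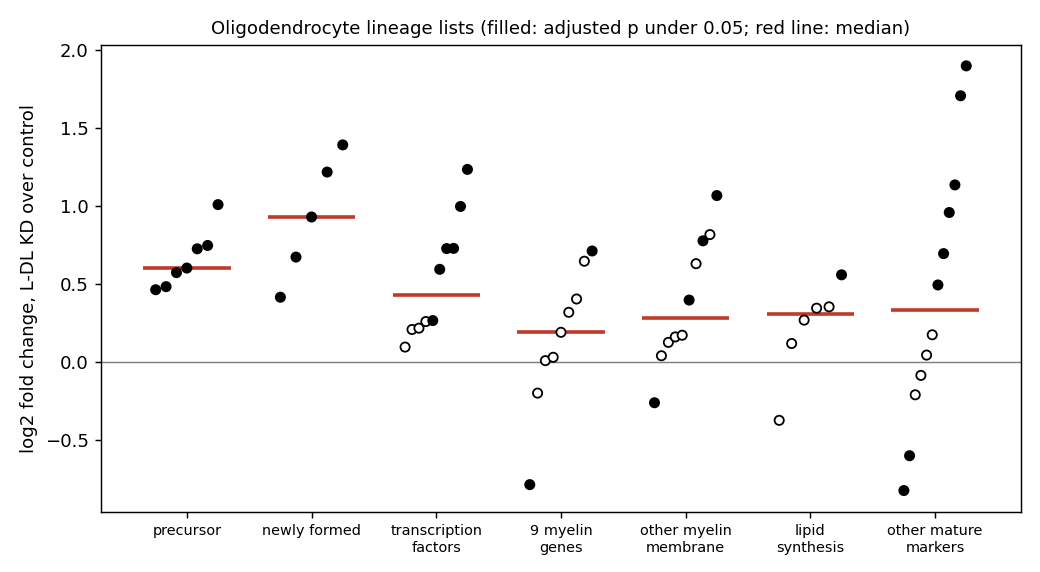
Log2 fold change (y axis, L-DL KD over control) of each tested gene in the oligodendrocyte lineage lists, each point a gene and red lines list medians. Filled points passed an adjusted p under 0.05. All 7 precursor and 5 newly formed oligodendrocyte markers are filled and above 0, whereas 7 of the 9 myelin genes are open.

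Transcription factors of the lineage were called higher in 6 of 10 and lower in 0, against 15.6% and 15.0% of all genes. Their median log2 fold change was 0.43. Sox10, which directs myelin gene expression, rose from 70.2 ± 3.59 to 116 ± 16.8 CPM (log2 fold change 0.73, adjusted p = 0.00216, edgeR). Olig1 was at 141 ± 5.64 and 150.3 ± 22.8 CPM and Myrf, which is needed to start and keep up myelin genes, at 128 ± 2.39 and 149 ± 20.5 CPM, and neither passed. Of the other mature oligodendrocyte markers, 6 of 12 were called higher, against 15.6% of all genes, and 2 lower, near the 15.0% of all genes. Apod, a lipid carrier that other glia also express, rose from 419 ± 22.6 to 1368 ± 97.1 CPM. Tppp, a tubulin-binding protein also found in neurons, fell from 464 ± 2.28 to 262 ± 61.8 CPM, and Car2 did not pass (log2 fold change -0.21, adjusted p = 0.240, edgeR). Of the mature markers called lower, the other was Anln, named here after its value was seen, at 62.1 ± 5.72 and 40.9 ± 9.80 CPM.

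Other membrane proteins of myelin were called higher in 3 of 10 and lower in 1, against 15.6% and 15.0% of all genes. Tspan2 (log2 fold change 0.13) did not pass, and Gpm6b, a proteolipid that neurons and astrocytes also express, fell by 0.26 on the log2 scale (adjusted p = 0.0307, edgeR). Of the genes for myelin lipid synthesis, 1 of 6 was called higher, near the 15.6% of all genes, and 0 lower. This was Cers2, the ceramide synthase for very long acyl chains, at 86.9 ± 3.27 and 128 ± 14.2 CPM, whereas Ugt8a (64.5 ± 2.03 and 81.9 ± 30.3 CPM) and Fa2h (53.6 ± 2.32 and 58.1 ± 22.7 CPM) did not pass. Among 5 genes of the axon-glia junction, 1 was called lower, near the 15.0% of all genes, and 0 higher, while Nfasc, Cntn1 and Cntn2 did not pass. The gene called lower was Cntnap1, a neuronal component of the paranode named here after its value was seen, at 225 ± 5.97 and 90.8 ± 18.7 CPM. Neuron markers were called lower in 5 of 6, against 15.0% of all genes, and higher in 1 (Nefl). Their part in the value of Cntnap1 was not tested.

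RNA-binding regulators of myelin transcripts were called higher in 2 of 5 and lower in 0, against 15.6% and 15.0% of all genes. Qk encodes quaking, which is known to bind Mbp and Mag transcripts and to act on the splicing of Mag. It was at 435, 442 and 447 CPM in the controls and at 496, 523 and 510.2 CPM in the KD-labelled libraries, which did not overlap (log2 fold change 0.21, SE 0.06, adjusted p = 0.0341, edgeR). Hnrnpf, named here after its value was seen, was at 74.1 ± 2.96 and 101 ± 12.4 CPM. Hnrnpa2b1, whose protein carries Mbp RNA to the processes, was at 574 ± 40.8 and 549 ± 43.8 CPM, and Hnrnph1 at 402 ± 21.9 and 395 ± 62.9 CPM, and neither passed.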

How the data were processed

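RNA-seq of 3 control and 3 L-DL KD hippocampus samples was analysed. The authors deposited whole-number read counts for each Ensembl gene, without scaling, from read pairs aligned to GRCm38. They also deposited an rMATS table that gives, per library, junction counts of both forms, with the effective form lengths. Its columns of PSI, p-values and FDR hold the authors' comparison and were not used. The submitters' processing notes list HISAT2 (2.1.0), HTSeq (0.6.1), Bowtie (1.1.2) and mm10, without their roles. Whether counting used strand is not given in the sources used here, so overlapping and antisense genes were not told apart. The rMATS columns carry no sample names or replicate numbers. Their groups were taken from the study's definition of ΔPSI, and no label ties a column to a numbered library. As a check, the gene totals of each column were correlated with the libraries. Each correlated best with the library of its own group whose number was the column's place in the deposited order. The r of these matches was 0.857 to 0.920, across 5844 genes, which are not independent replicates.

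Genes that reached 10 counts in 3 or more libraries were tested with edgeR (4.0.16, R 4.3.3) after TMM scaling. Junction counts were tested with edgeR on both forms as separate columns, with terms for library, form and the form's change between groups. Both models were tested on simulated data. There the splicing model recovered changed events where the spread between libraries was small. At a larger spread, close to the median of all tested events (an intraclass correlation between libraries of a group of 0.00776), it lost all of them unless events with a rare form were left out. The test over all events thus had almost no power at that spread, and a high adjusted p over all events does not show that an event was alike in both groups. The 18 tested events of the members had a lower median of 0.000469, with a mean of 0.0105. Alternatives were DESeq2 (1.42.0), library-size scaling, other filters, a replicate block, limma (3.58.1) on log2 ratios of both forms (pseudocount 0.5), PSI from unscaled counts, leaving out each library and, chosen after the data were seen, well-covered events and the ratio to Mbp.

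Members and lists were chosen with earlier results of these data known. Named were all members, their tested events and, from other lists, up to 3 genes with the highest mean CPM, with exceptions marked. Some genes that this rule names are not reported here. Coordinates, exon numbers, exon lengths and Mag sequences are from GENCODE (GRCm38). The sources do not say how many animals each sample came from, so p-values measure the spread between these samples.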

Additional observations from a re-analysis of the deposited data

How the results depend on the processing

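Leaving out each library in turn gave 1 to 5 called members, against 2, while the share of all genes called ranged from 20.1 to 37.5%, against 30.5%, so the range is no result about the members alone. Scaling and tool changed no member's call, namely DESeq2, library-size scaling, both filters and the replicate block, which each gave 2 called members. The replicate block gave log2 fold changes of 0.69 for Mag and -0.83 for Mal and called 5 of 7 precursor markers and 5 of 5 newly formed oligodendrocyte markers higher. Deviations of same-numbered libraries correlated at 0.06, 0.16 and -0.14, so the numbers were not taken as pairs. No paired analysis was run for the junction counts. With all events, 0 member events were called under limma, both other junction filters and any library left out, where 0 to 52 events were called in all. Restricted to well-covered events with both forms, 3 member events were called in edgeR and 3 in limma. Small differences, and the larger one of Opalin, changed sign when 1 library was left out. The log2 fold change of Mbp ranged from -0.062 to 0.14, of Ermn from -0.061 to 0.097 and of Opalin from -0.26 to 0.99. In the same way, ΔPSI ranged from -0.0303 to 0.00753 for the 53 nt form of Mag exon 2, from -0.000669 to 0.000538 for Mbp exon 5 before the last exon, from -0.00740 to 0.0142 for Mbp exon 2 and from -0.00533 to 0.000509 for Mobp exon 2. The rare forms of Mag exon 2 rest on too few counts to place their PSI.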
